A study of Mus musculus with 2 samples.

Results

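The 10 CC chemokine genes Ccl2, Ccl7, Ccl12, Ccl8, Ccl11, Ccl3, Ccl4, Ccl5, Ccl19 and Ccl21a were followed through macrophages, fibroblasts, endothelial cells and lymphoid cells of the mouse aorta. They were taken by symbol from the 32285 features of the deposited tables and chosen by their levels and their ratio between the libraries in these 4 classes, so those values are given as a description. The aortas came from male C57BL6 littermates, dissected from the arch to the pelvic bifurcation, and were profiled cell by cell in droplets with 3′ RNA sequencing, where each unique molecular identifier (UMI) stands for a captured transcript. The Cept1 group was Cept1fl/fl Cre+, labelled as endothelial overexpression of Cept1 through VE-cadherin-Cre-ERT2, a Cre recombinase driven by the promoter of an endothelial adhesion molecule and active after tamoxifen. The labels do not describe how the floxed allele gives overexpression. The control group was Cept1fl/fl Cre-. Both groups thus carried the floxed allele, and per the labels' protocols the littermates received tamoxifen as 5 daily injections of 1 mg from at least 8 weeks of age, followed by 5 days of recovery. The age label itself gives 6-8 weeks. The labels name 3 mice per condition, a digestion of 1 hour and a cell sort; the sources used here give neither the pooling of the mice nor the sorted gate. Each group is 1 library, so no difference has a replicate check, none was tested, and all intervals are exact 95% intervals that cover counting error only.

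CC chemokines are small secreted proteins that steer leukocytes along gradients by binding G protein-coupled receptors, and several of them also stick to matrix and to vessel walls. Ccl2, Ccl7 and Ccl12 bind Ccr2, the receptor by which monocytes leave the bone marrow and enter tissue; mouse Ccl8 acts through Ccr8, a receptor of T helper cells, and Ccl11 acts through Ccr3 on eosinophils. Ccl3 and Ccl5 bind Ccr1, a receptor of monocytes and macrophages, and Ccl4 is a related attractant of monocytes and T cells. Ccl19 and Ccl21a bind Ccr7, through which dendritic cells and naive lymphocytes move along lymphatic vessels and into lymph nodes.

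In the GENCODE vM21 annotation of GRCm38, Ccl2, Ccl7, Ccl11, Ccl12 and Ccl8 lie in this order on chromosome 11, all on the plus strand, within 81.2 kb. Ccl5, Ccl3 and Ccl4 lie within 139 kb further along the same chromosome, and Ccl19 and Ccl21a within 19.5 kb on chromosome 4. Ccl12 (chr11:82101845-82103400) and Ccl8 (chr11:82115185-82116799) are direct neighbours among the 10 genes, yet their ratios in macrophages were unlike, as given below. For that reason the 250 bases before their RefSeq starts (build GRCm38.p6, plus strand, chr11:82101595-82101844 for Ccl12 and chr11:82114935-82115184 for Ccl8) are shown, with motif matches in capitals.
Ccl12: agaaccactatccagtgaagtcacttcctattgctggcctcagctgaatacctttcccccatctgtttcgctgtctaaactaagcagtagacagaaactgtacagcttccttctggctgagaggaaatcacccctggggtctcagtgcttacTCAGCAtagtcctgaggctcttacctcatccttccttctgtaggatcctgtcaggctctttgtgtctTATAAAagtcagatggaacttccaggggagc
Ccl8: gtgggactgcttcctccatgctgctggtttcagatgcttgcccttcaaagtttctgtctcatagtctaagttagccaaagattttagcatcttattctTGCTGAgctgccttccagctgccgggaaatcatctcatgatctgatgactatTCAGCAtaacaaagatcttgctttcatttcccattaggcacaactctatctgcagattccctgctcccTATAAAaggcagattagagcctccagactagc

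Both stretches held the TATA box TATAAA, beginning 31 bases before the start in Ccl12 and 32 bases before it in Ccl8. The letters TGCTGA, part of the recognition element of Maf transcription factors and read as TCAGCA on the other strand, occurred at 98 bases in Ccl12 and at 152 and 100 bases in Ccl8. Of 32841 promoter stretches of the same length and position, 12.4% held TATAAA and 16.1% held TGCTGA on either strand. An AP-1 motif (TGANTCA, in 6.75% of promoters), a STAT motif (TTCNNNGAA, in 7.02%), an interferon response core (in 2.98%) and an NF-kB motif (in 7.25%) had no match in either stretch. No 2 of the motif matches overlapped. Of the 10 genes, 5 had a promoter entry. These matches describe the letters only.

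After a filter on genes and mitochondrial UMIs, 11168 cells of the Cept1 library and 8729 of the control library were kept, with medians of 6438.5 and 6735 UMIs. A cell was put in a class where at least 3 of the 6 genes of a marker panel had a UMI and the number was at least 2 above that of each of the other 12 panels. The macrophage class held 1637 and 747 cells, the fibroblast class 5307 and 3884, the endothelial class 1513 and 727, and the lymphoid class, which joins T or NK cells and B cells, 482 and 1245 (Cept1 library, then control library). No panel held a chemokine or a chemokine receptor gene. In CPM (counts per 1000000 UMIs of the class), the 6 genes of a class's own panel summed to 8763 and 8534 in macrophages, 7167 and 7651 in fibroblasts and 6952 and 6968 in endothelial cells. The targeted gene itself stood at 115 CPM in endothelial cells of the Cept1 library and 75.1 CPM in those of the control library, a log2 ratio of 0.62 (0.47 to 0.76). In blood endothelial cells the ratio was 0.79, and in lymphatic endothelial cells it was 0.11 (-0.18 to 0.40). Outside endothelial cells the Cept1 ratio was 0.16 in macrophages, 0.13 in fibroblasts and 0.29 in smooth muscle cells. It was 0.40 in T or NK cells, -0.12 in B cells and 0.56 (0.41 to 0.72) in barcodes outside the cell filter. The libraries shared 74 barcodes. Leaving these out moved none of the 40 ratios of the 10 genes outside its counting interval.

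Each class had its own leading CC chemokines, and these were the same genes in both libraries. Macrophages held 72.9% of the Ccl2 UMIs of the Cept1 library and 70.4% of those of the control library, and 84.1% and 79.8% of the Ccl8 UMIs. Fibroblasts held 91.4% and 90.5% of the Ccl11 UMIs and 87.9% and 87.9% of the Ccl19 UMIs. Endothelial cells held 91.6% and 90.6% of the Ccl21a UMIs, and T or NK cells 69.1% and 69.2% of the Ccl5 UMIs. Cells of no class, 10.9% and 14.5% of the kept cells, held from 6.25% (Ccl11) to 25.6% (Ccl4) of a gene's UMIs in the Cept1 library and from 7.10% (Ccl12) to 23.8% (Ccl5) in control.

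**Figure D1:**
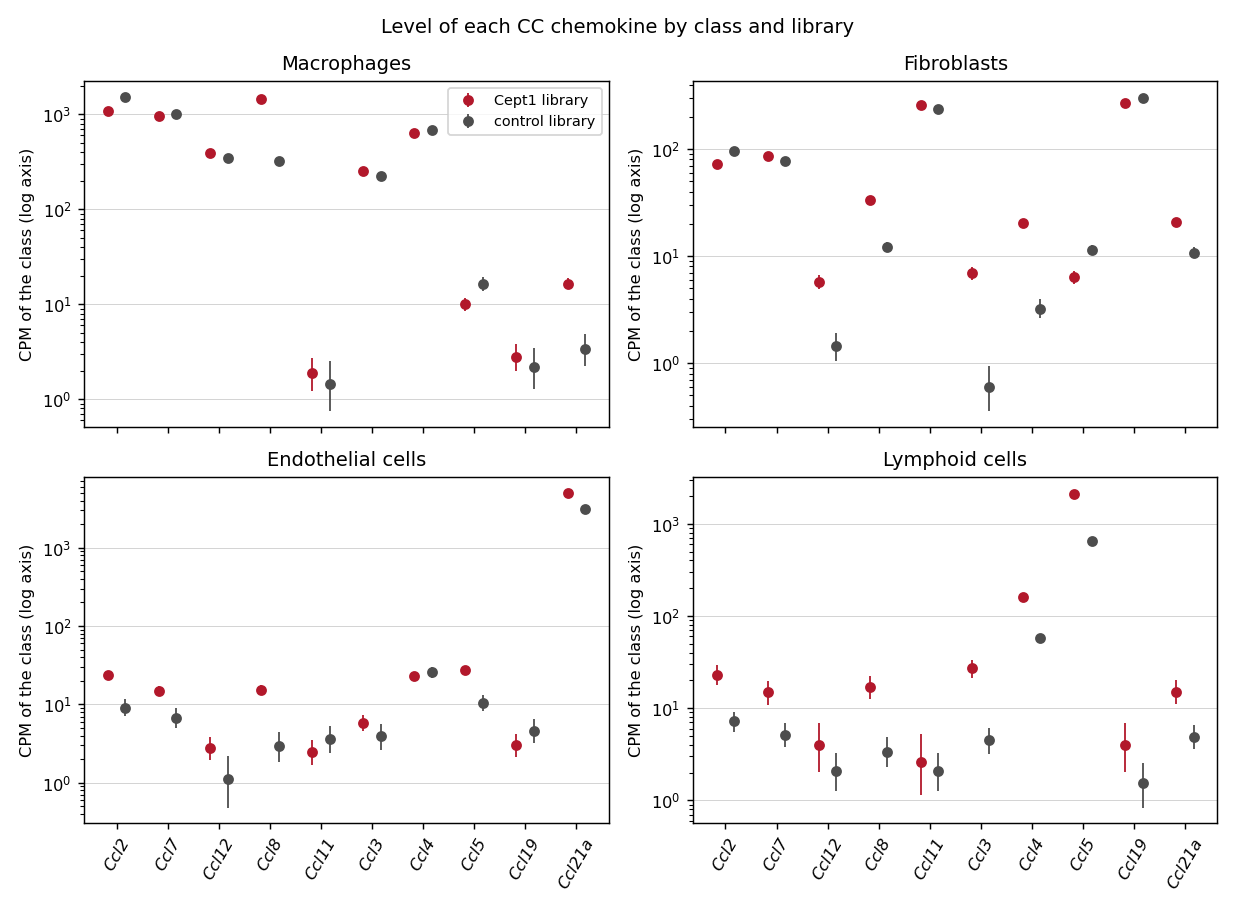
Level of each of the 10 genes in CPM on a log axis, in 4 classes, with Cept1 library points left of control library points and bars for the exact 95% Poisson interval. Macrophages lead in Ccl2, Ccl7, Ccl12, Ccl8, Ccl3 and Ccl4, fibroblasts in Ccl11 and Ccl19, endothelial cells in Ccl21a and lymphoid cells in Ccl5; Ccl8 in macrophages is at 1445 against 323 CPM.

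A gene was counted as higher or lower where its ratio was at least 2-fold with at least 20 UMIs over both libraries, and all 10 genes reached that number in each of the 4 classes. In macrophages 2 of 10 were higher (Ccl8 and Ccl21a) and 0 lower, where 0.964% of 10061 genes with at least 100 UMIs were higher and 0.527% lower. In fibroblasts 4 of 10 were higher (Ccl12, Ccl8, Ccl3 and Ccl4) and 0 lower, against 0.439% higher and 0.682% lower of 12756 genes. In endothelial cells 5 of 10 were higher (Ccl2, Ccl7, Ccl12, Ccl8 and Ccl5) and 0 lower, against 0.674% higher and 0.591% lower of 10831 genes. In lymphoid cells 8 of 10 were higher (all but Ccl12 and Ccl11) and 0 lower, against 2.69% higher and 0.593% lower of 8931 genes. The median log2 ratio of the 10 genes was 0.18 in macrophages, 0.56 in fibroblasts, 0.90 in endothelial cells and 1.58 in lymphoid cells, and that of all genes lay between -0.04 and 0.02 in the 4 classes. Since the genes were chosen with these ratios known, nothing is read from the counts. The leading genes of a class were mostly among those that differed little: Ccl2, Ccl7, Ccl12, Ccl3 and Ccl4 in macrophages, Ccl11 and Ccl19 in fibroblasts and Ccl21a in endothelial cells were all within 2-fold. The exceptions were Ccl8 in macrophages and Ccl5 in lymphoid cells.

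**Figure D2:**
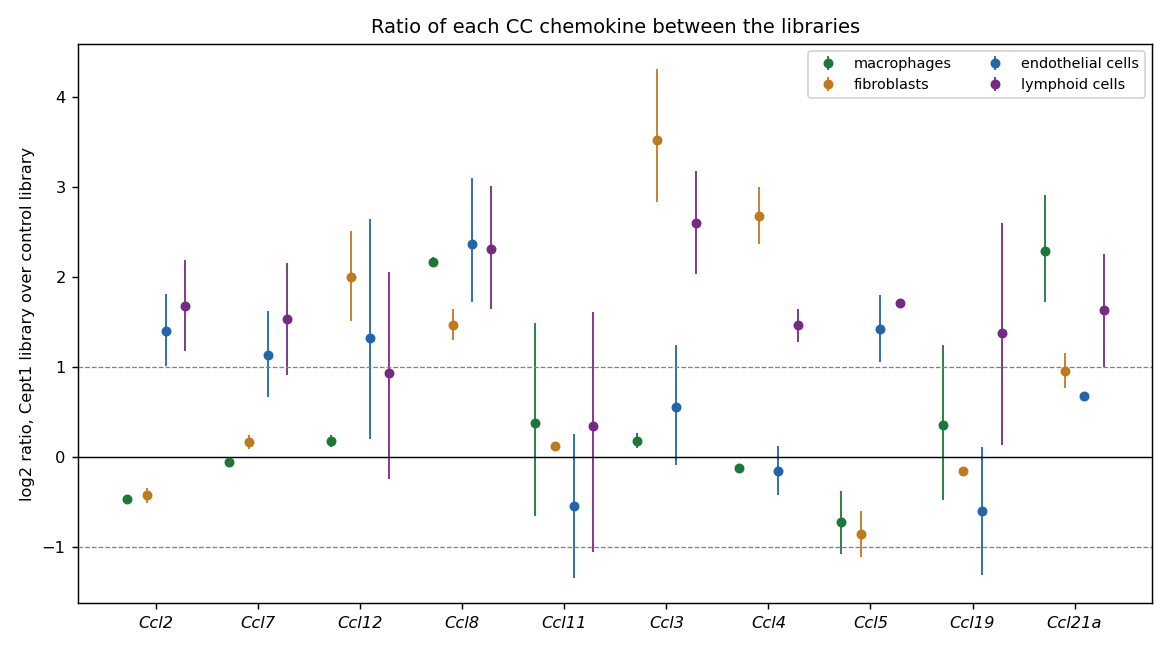
Log2 ratio, Cept1 library over control, for each gene (horizontal axis) in 4 classes (colours), with exact 95% Clopper-Pearson intervals as bars and dashed lines at 2-fold. Ccl8 lies above the upper line in all 4 classes, while Ccl2 lies at -0.47 in macrophages and 1.68 in lymphoid cells.

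Among the 6 genes that macrophages led, Ccl8 differed most between the libraries. It was counted 20857 times in macrophages of the Cept1 library and 2679 times in those of the control library, which gives 1445 and 323 CPM, a 4.47-fold difference (log2 2.16, 2.10 to 2.22). The difference lay both in how many cells held the transcript and in how much they held. With every cell thinned to 2000 UMIs, 42.6% (40.2 to 45.1) of 1601 macrophages of the Cept1 library and 23.9% (20.8 to 27.3) of 702 macrophages of the control library had a Ccl8 UMI; without thinning the shares were 59.3% and 40.8%. At least 10 Ccl8 UMIs after thinning were found in 7.99% (6.71 to 9.43) and 0.997% (0.402 to 2.04) of these cells. The richest 1% of macrophages held 22.5% and 30.3% of the Ccl8 UMIs, and a single cell held at most 462 and 175.

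**Figure D3:**
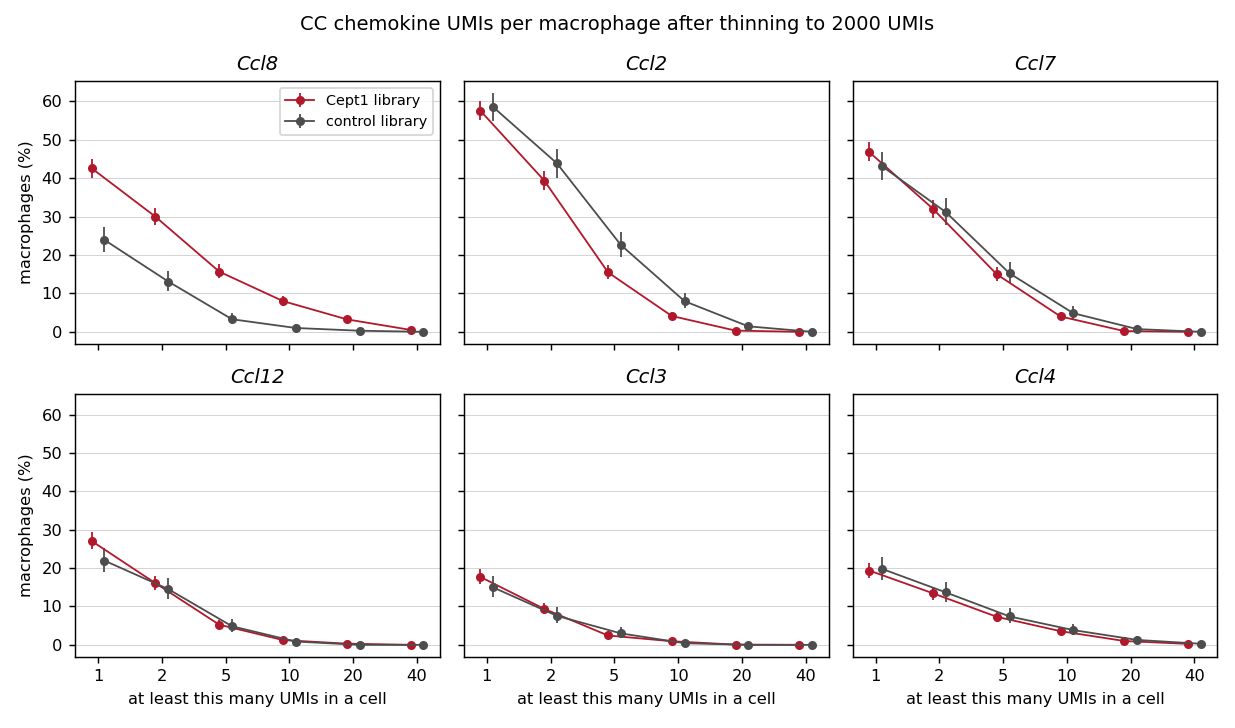
Share of macrophages (percent) with at least 1, 2, 5, 10, 20 or 40 UMIs of a gene after thinning to 2000 UMIs per cell, for 6 genes, with exact 95% binomial intervals. For Ccl8 the Cept1 library lies above the control library from 1 UMI (42.6% and 23.9%) to 20 UMIs (3.25% and 0.285%), and for Ccl2 it lies below at 5 UMIs (15.5% and 22.6%).

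Within macrophages, Ccl8 was higher in cells with more of the resident markers Folr2 (a folate receptor), Lyve1 (a hyaluronan receptor), Cd163 (a haemoglobin scavenger receptor) and F13a1 (coagulation factor XIII A). In macrophages with 0 or 1 of these markers Ccl8 stood at 54.9 CPM (Cept1 library) and 15.1 CPM (control library), from 72 and 12 UMIs. With 2 markers it stood at 309 and 76.3 CPM, with 3 at 1229 and 466 CPM, and with all 4 at 1784 and 357 CPM. The level was thus highest with 4 markers in the Cept1 library and with 3 in the control library. The markers themselves were alike in the libraries: after thinning, Folr2 was found in 69.9% and 68.4% of macrophages, Lyve1 in 60.9% and 62.4%, Cd163 in 66.9% and 65.7%, and F13a1 in 94.2% and 95.01%. The Ccl8 ratio was 2.15 (2.10 to 2.21) in macrophages with at least 2 resident markers and 1.86 (0.97 to 2.88) in the others. It was smaller in cells with few UMIs of other panels. Among macrophages with markers of at most 1 other panel, 153 cells of the Cept1 library and 75 of the control library with medians of 5372 and 2822 UMIs, Ccl8 stood at 496 and 284 CPM, a log2 ratio of 0.80. In all macrophages the median depth was 8161 and 10405 UMIs. The part of depth and of other cells' RNA in the Ccl8 difference was not tested.

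Ccl2, Ccl7 and Ccl12, the ligands of the monocyte receptor Ccr2, did not share that difference. Ccl2 reached 1087 CPM in macrophages of the Cept1 library and 1504 CPM in those of the control library (log2 -0.47, -0.50 to -0.43). Ccl7 stood at 970.4 and 1014 CPM (-0.06) and Ccl12 at 388 and 343 CPM (0.18). A Ccl2 UMI was found after thinning in 57.6% and 58.5% of macrophages, while 4.12% and 7.98% had at least 10. These genes were found in the same cells: Ccl7 was detected in 64.4% of Ccl2-positive and 23.0% of Ccl2-negative macrophages of the Cept1 library, and in 61.1% and 17.9% of those of the control library. Ccl8 was spread more evenly over them, in 47.0% of Ccl2-positive and 36.7% of Ccl2-negative macrophages of the Cept1 library and in 24.6% and 23.0% of those of the control library. Thinned cells of 1 library share a depth but not a true RNA content, so these shares are a description.

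Ccl3 and Ccl4, the macrophage inflammatory proteins, stood highest where the resident markers and Ccl8 were low. In macrophages with 0 or 1 resident marker Ccl4 reached 2631 CPM (Cept1 library) and 2523 CPM (control library), and in those with all 4 it stood at 330.0 and 445 CPM. Ccl3 stood at 711 and 497 CPM in the macrophages with 0 or 1 marker and at 171 and 183 CPM in those with all 4. Over all macrophages Ccl3 was at 252 and 223 CPM (log2 0.18) and Ccl4 at 634 and 691 CPM (-0.12). Ccl4 was detected in 50.5% of Ccl3-positive macrophages of the Cept1 library and 67.6% of those of the control library, against 12.7% and 11.4% of the Ccl3-negative cells. Ccl3 was detected in 14.8% of Ccl8-positive and 19.8% of Ccl8-negative macrophages of the Cept1 library, and in 10.1% and 16.5% of those of the control library, so the same cells could hold both.

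**Figure D4:**
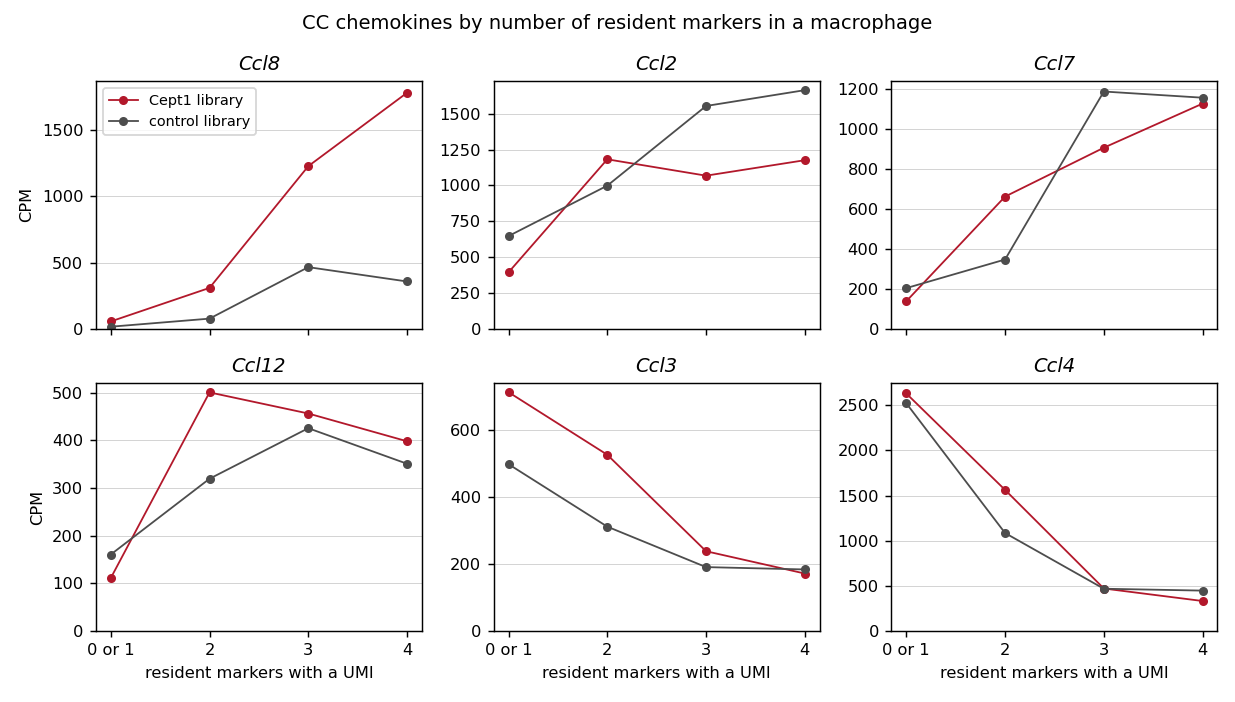
Level in CPM (linear axes starting at 0) of 6 genes in macrophages with 0 or 1, 2, 3 or 4 of the resident markers Folr2, Lyve1, Cd163 and F13a1, with a line per library. With all 4 markers Ccl8 is at 1784 CPM (Cept1 library) and 357 CPM (control library), and Ccl4 is at its lowest, 330.0 and 445 CPM.

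The other 4 genes were low in macrophages. Ccl11 had 27 and 12 UMIs, Ccl19 had 40 and 18, and Ccl5 had 144 and 137, of which the richest 1% of cells held 81.2% and 94.2%. Ccl21a was counted 238 times in macrophages of the Cept1 library and 28 times in those of the control library, 16.5 and 3.38 CPM (log2 2.29, 1.72 to 2.91). The 6 endothelial panel genes summed to 47.8 and 28.4 CPM there (genes at 1.11 to 20.9 and 1.21 to 12.7 CPM), with 5 of 6 log2 ratios above 0 and none of them at 0 UMIs. In the 153 and 75 macrophages with markers of at most 1 other panel the Ccl21a ratio was -0.20, with no interval given for these few cells. The part of endothelial RNA in the Ccl21a value was not tested.

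Ccl8 and Ccl21a were found at a low rate in classes that should lack them, and this rate was more even over classes in the Cept1 library than in control. A Ccl8 UMI was present in 10.4% of endothelial cells, 9.49% of T or NK cells, 10.1% of B cells, 9.45% of smooth muscle cells and 10.5% of neutrophils of the Cept1 library, and in 2.48%, 2.93%, 1.84%, 2.20% and 1.14% of those of the control library. Ccl21a was present in 9.65% of macrophages, 8.39% of T or NK cells, 10.1% of B cells and 8.43% of smooth muscle cells of the Cept1 library, and in 3.75%, 3.70%, 2.68% and 1.69% of those of the control library. Median depths of these classes ran from 4313 to 10534 UMIs in the Cept1 library and from 5361 to 15153 UMIs in the control library. Summed over all kept cells, Ccl8 made up 300.3 and 43.9 CPM and Ccl21a 840.2 and 320 CPM. In barcodes outside the cell filter Ccl8 stood at 227 and 25.9 CPM and Ccl21a at 273 and 63.1 CPM. The Ccl8 ratios of 2.37 in endothelial and 2.31 in lymphoid cells rest on 195 and 21 and on 51 and 31 UMIs, at shares of cells like those of the other classes named here. The part of free RNA in them was not tested. In fibroblasts Ccl8 was present in 11.9% of cells of the Cept1 library, near that level, and in 5.20% of cells of the control library.

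**Figure D5:**
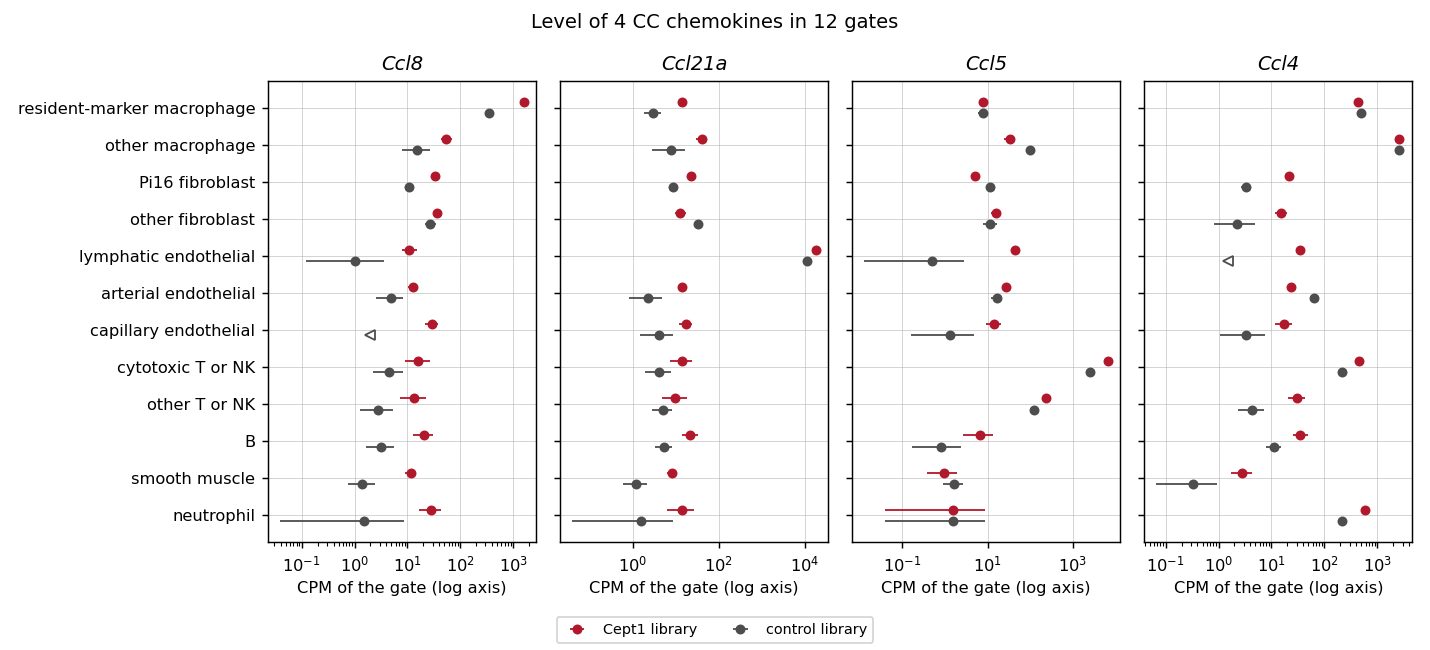
Level of Ccl8, Ccl21a, Ccl5 and Ccl4 in CPM (log axes) in 12 gates, Cept1 library above control library, with exact 95% Poisson intervals; an open triangle marks the level of 3 UMIs where none was counted. Outside macrophages Ccl8 lies between 10.96 and 37.0 CPM in the Cept1 library, and Ccl21a leads in lymphatic endothelial cells at 17842 and 11057 CPM.

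Fibroblasts were the source of Ccl11, which attracts eosinophils, and of Ccl19, the Ccr7 ligand of lymphoid stroma, and both were alike in the libraries. Ccl11 stood at 259.9 CPM (Cept1 library) and 239 CPM (control library; log2 0.12, 0.08 to 0.17), and Ccl19 at 271 and 301 CPM (-0.15, -0.20 to -0.11). After thinning, Ccl11 was found in 23.6% and 21.4% of fibroblasts and Ccl19 in 33.9% and 36.5%. They were found apart more often than together: Ccl19 was present in 24.2% of Ccl11-positive and 36.9% of Ccl11-negative fibroblasts of the Cept1 library, and in 26.3% and 39.3% of those of the control library. Fibroblasts with a UMI of Pi16 or Dpp4, genes of adventitial fibroblasts, had 247 and 216 CPM of Ccl11, and the remaining fibroblasts 354 and 463 CPM. Ccl19 stood at 245 and 286 CPM in the first set and at 462 and 457 CPM in the second.

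The monocyte attractants were held by few fibroblasts. Ccl2 stood at 71.8 CPM in fibroblasts of the Cept1 library and 96.8 CPM in those of the control library (log2 -0.43, -0.51 to -0.35), and the richest 1% of cells held 72.4% and 76.4% of its UMIs. Ccl7 stood at 86.3 and 77.1 CPM (0.16), with 61.2% and 66.3% in the richest 1%. A Ccl7 UMI was found in 24.0% of Ccl2-positive and 5.44% of Ccl2-negative fibroblasts of the Cept1 library, and in 23.2% and 3.53% of those of the control library.

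The 4 genes counted as higher in fibroblasts were all leading genes of macrophages. Ccl8 had 1070 UMIs in fibroblasts of the Cept1 library and 365 in those of control (33.6 and 12.2 CPM, log2 1.47), and Ccl12 had 182 and 43 (5.72 and 1.43 CPM, log2 2.00). Ccl3 had 219 and 18 UMIs (6.88 and 0.600 CPM, log2 3.52, 2.83 to 4.30), of which a single fibroblast of the Cept1 library held 106. Ccl4 had 655 and 97 UMIs (20.6 and 3.23 CPM, log2 2.67), with 319 in a single cell, and its ratio was 1.15 without the 10 richest cells of each library. The log2 ratios of the 6 macrophage panel genes were also above 0 in all 6 cases there, with a summed level of 79.1 CPM (Cept1 library, genes at 0.534 to 31.0) and 53.5 CPM (control library, genes at 0.267 to 22.1) and none of them at 0. The part of macrophage RNA in these 4 ratios was not tested.

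Endothelial cells contributed Ccl21a, the lymphatic ligand of Ccr7, almost wholly from the lymphatic set. In lymphatic endothelial cells, 302 of the Cept1 library and 150 of the control library with at least 2 of Prox1, Mmrn1, Lyve1, Reln and Flt4, Ccl21a stood at 17842 and 11057 CPM (log2 0.69, 0.67 to 0.71), from 63476 and 22082 UMIs. A Ccl21a UMI was found after thinning in 76.7% and 70.7% of these cells, and at least 10 in 70.7% and 58.5%. Over all endothelial cells the level was 4950.5 and 3099.96 CPM, with lymphatic cells making up 302 of 1513 and 150 of 727 cells. Among cells with markers of at most 1 other panel, 92 and 56 endothelial cells, the log2 ratio of Ccl21a was -0.997. The counts of Ccl21a and Ccl19 are uncertain where reads also match their near-identical copies.

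Over all blood endothelial cells no CC chemokine passed 40 CPM in either library, but some did in smaller sets taken by marker genes. In capillary cells Ccl7 stood at 55.7 and 8.59 CPM and Ccl2 at 41.4 and 15.9 CPM (Cept1 library, then control library). Ccl4 stood at 23.1 and 63.1 CPM in arterial cells. Venous cells had Ccl5 at 0 and 81.7 CPM, from 0 and 18 UMIs. Ccl2 was counted 308 and 65 times over all endothelial cells (24.0 and 9.11 CPM, log2 1.40, 1.01 to 1.81), but 7.53% and 6.19% of cells held a UMI and the richest 1% held 68.2% and 35.4% of them. Its ratio was 0.19 where every cell was weighted equally and 0.64 without the 10 richest cells. Ccl5 was counted 355 and 74 times (27.6 and 10.4 CPM, log2 1.41), of which 1 lymphatic cell of the Cept1 library held 144. Its ratio was -0.17 with every cell weighted equally and 0.54 with Scrublet doublets removed. Ccl7 had 189 and 48 UMIs (log2 1.13) and Ccl12 had 36 and 8 (1.32), and 6.21% and 4.68% of cells held Ccl7. In the 92 and 56 endothelial cells with markers of at most 1 other panel these ratios were -0.36 and -0.94, with no interval given. Ccl8 had 7 and 1 UMIs in those cells, so ratios of low genes there can rest on few UMIs. The 6 macrophage panel genes summed to 90.6 CPM in endothelial cells of the Cept1 library and 64.7 CPM in those of the control library (genes at 0.778 to 42.6 and 0.140 to 27.2 CPM, none at 0), and their part in these ratios was not tested. In lymphatic endothelial cells Ccl4 was counted 125 times in the Cept1 library and 0 times in the control library, at least 23.4-fold higher against a floor of 3 UMIs, with 87 of the UMIs in a single cell.

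Lymphoid cells held Ccl5, a chemokine made by cytotoxic cells, and it stood higher in the Cept1 library. T or NK cells had 3254 CPM of Ccl5 (Cept1 library) and 1090.5 CPM (control library; log2 1.58, 1.53 to 1.63), from 6379 and 5909 UMIs. Cytotoxic T or NK cells, which had at least 2 of 7 genes such as Nkg7, Gzmb and Prf1, stood at 6634 and 2514 CPM (1.40, 1.35 to 1.45), and the other T or NK cells at 231 and 124 CPM (0.89). The level was thus higher in the Cept1 library in both sets, which are named by these marker UMIs alone. Ccr7, the highest of 14 CC receptor genes, stood at 176 and 449 CPM in the cytotoxic set. In the other T or NK cells it stood at 196 and 415 CPM. Whether the cytotoxic set was equally pure in the libraries was not tested. The 6 fibroblast panel genes summed to 172 and 34.2 CPM in the cytotoxic set (genes at 1.08 to 58.3 and 1.37 to 10.5 CPM, none at 0). In the other T or NK cells they summed to 47.3 and 48.9 CPM. In the cytotoxic set 5 of 5 panel genes with at least 20 UMIs over both libraries were at least 2-fold higher. Of 4652 genes with at least 100 UMIs 3.61% were, so the minimum counts are unlike. The part of the fibroblast genes in the Ccl5 and Ccl4 ratios was not tested. After thinning, 66.4% of cytotoxic cells of the Cept1 library and 36.2% of those of the control library had a Ccl5 UMI, and 50.4% and 21.6% had at least 10. The cytotoxic gate held 120 of 274 T or NK cells of the Cept1 library and 232 of 648 of the control library. T or NK cells were 2.45% and 7.42% of kept cells, and Ccl5 over all kept cells was 112 and 112 CPM. B cells, which should lack Ccl5, had 7 and 3 UMIs.

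Ccl4 and Ccl3 were found beside Ccl5. Ccl4 stood at 227 CPM in T or NK cells of the Cept1 library and 90.2 CPM in those of the control library (log2 1.33, 1.14 to 1.52), and at 447 and 217 CPM in the cytotoxic set (1.04). It was detected in 35.2% of Ccl5-positive and 1.09% of Ccl5-negative T or NK cells of the Cept1 library, and in 24.3% and 0.186% of those of the control library. Over all lymphoid cells the Ccl4 ratio was 1.46, and it was -0.52 among the 67 and 196 cells with markers of at most 1 other panel. Ccl3 had 76 and 37 UMIs in T or NK cells, with 44 and 15 in a single cell.

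The other genes counted as higher in lymphoid cells were low. Ccl2 stood at 23.1 and 7.21 CPM, Ccl7 at 14.8 and 5.14 CPM, Ccl21a at 15.2 and 4.92 CPM and Ccl19 at 3.96 and 1.53 CPM, from 12 to 70 UMIs in each library. B cells, which should lack Ccl2 and Ccl7, had Ccl2 at 20.5 and 6.97 CPM and Ccl7 at 13.05 and 5.10 CPM, near the levels of T or NK cells (24.5 and 7.38 CPM of Ccl2). The macrophage panel genes summed to 85.4 CPM in lymphoid cells of the Cept1 library and 36.8 CPM in those of the control library (genes at 1.32 to 34.6 and 0.328 to 15.9 CPM, none at 0). Of the 5 with at least 20 UMIs over both libraries, 4 were at least 2-fold higher. Of 8931 genes with at least 100 UMIs 2.69% were, again at an unlike minimum count. The part of the macrophage genes in these low values was not tested. The immediate early and dissociation list was also above 0 in 12 of 12 genes in lymphoid cells, with a median log2 ratio of 0.93, and its part in the Ccl5 and Ccl4 ratios was not tested.

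Some smaller classes also held CC chemokines. Mast cells, 33 and 32 in number (Cept1 and control library), had Ccl2 at 1657 and 2030.1 CPM, a UMI in 97.0% and 87.5% of cells and a log2 ratio of -0.29 (-0.52 to -0.06). This was above the macrophage level of 1087 and 1504 CPM in both libraries. Ccl7 in mast cells had 228 and 75 UMIs, with 103 and 38 of them in a single cell. Neutrophils, 133 and 88 cells, had Ccl3 at 402 and 38.6 CPM (3.38, 2.79 to 4.04) and Ccl4 at 590.3 and 215 CPM (1.46, 1.18 to 1.75), with 91 and 6 Ccl3 UMIs in the richest cell; 9.49% of 1717 genes were at least 2-fold higher in that small class. The 6 macrophage panel genes summed to 285 and 108 CPM in neutrophils (genes at 1.54 to 81.7 and 3.09 to 38.6 CPM, none at 0). Of the 5 with at least 20 UMIs over both libraries, 4 were at least 2-fold higher. The 9.49% covers genes with at least 100 UMIs. The neutrophil panel itself summed to 168734 and 249903 CPM, and the inflammatory list was above 0 in 14 of 14 measured genes with a median log2 ratio of 1.81. Their part in the Ccl3 and Ccl4 values was not tested. Smooth muscle cells had Ccl19 at 33.4 and 36.6 CPM (-0.13) and Ccl11 at 17.4 and 7.27 CPM (1.26).

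Most other CC ligands and the receptors were within 2-fold in macrophages. Ccl6 and Ccl9, which bind Ccr1 in the mouse, stood at 1402 and 1173 CPM and at 799 and 637 CPM, and Ccl24, a further ligand of Ccr3, at 270.3 and 344 CPM (log2 -0.35). Of 7 measured other ligands in macrophages, 0 were higher and 2 lower, Ccl22 with 3 and 23 UMIs and Ccl26 with 65 and 89. Of 10061 genes with at least 100 UMIs there, 0.964% were higher and 0.527% lower. The receptors Ccr1 (115 and 101 CPM) and Ccr2 (147 and 131 CPM) had log2 ratios of 0.18 and 0.16, and of 4 measured receptor genes none passed 2-fold. The inflammatory list, which holds NF-kB target genes, had 2 of 15 genes above 0 in macrophages and a median of -0.47, with Il1a at 27.0 and 56.4 CPM. The interferon list had 9 of 12 above 0 there and a median of 0.55, with Rsad2 at 49.4 and 22.2 CPM and Isg15 at 20.7 and 45.7 CPM. The median log2 ratio of all genes with at least 100 UMIs in macrophages was 0.02.

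Of the receptors of Ccl19 and Ccl21a, Ccr7 was lower in lymphoid cells and Ackr4 in lymphatic endothelial cells of the Cept1 library. The values in T or NK, B and lymphatic endothelial cells were chosen after they were seen. Ccr7, the signalling receptor of both ligands, stood at 256 CPM in lymphoid cells of the Cept1 library and 453 CPM in those of the control library (log2 -0.82, -0.93 to -0.71). In T or NK cells it was at 187 and 429 CPM (-1.20), where 0.845% of 7457 genes were at least 2-fold lower. In B cells it was at 383 and 488 CPM (-0.35). Ackr4, an atypical receptor that takes up Ccl19 and Ccl21, stood at 68.9 CPM in lymphatic endothelial cells of the Cept1 library and 165 CPM in those of the control library (-1.26, -1.51 to -1.02), where 0.55% of 7455 genes were at least 2-fold lower. Ackr2, the lymphatic scavenger of inflammatory CC chemokines, was at 109.9 and 82.6 CPM there (0.41). Ccr2 stood at 88.0 and 33.5 CPM in lymphoid cells (1.40). Ccl1, the other mouse ligand of Ccr8, had 1 and 121 UMIs there (0.330 and 13.2 CPM).

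Across 16 sums, 8 classes with at least 50 cells in each of the libraries, likeness to a member was measured by Pearson r of log2(CPM + 1) among 12595 genes. Pf4, Mgl2 and Trem2 were most like Ccl8 (0.94 each), and Clec4b1, Tmem37 and Timd4 most like Ccl12 (0.97, 0.97 and 0.96). Gzma, Klrk1 and Il12rb2 were most like Ccl5 (0.96, 0.95 and 0.95), Il7, Ushbp1 and Gkn3 most like Ccl21a (0.98, 0.97 and 0.97), and Tnf, Fcer1g and Zfand3 most like Ccl3 (0.96, 0.95 and 0.95). Cacna1g, Ebf2 and Fmod were most like Ccl11 (0.96 each), and Greb1l, Larp6 and Echdc2 most like Ccl19 (0.96, 0.95 and 0.95). Ccl2 and Ccl7 had the same first gene, Gm17268 (0.98 and 0.99), followed by Ifi207 and Gm15726 for Ccl2 and by Homer2 and Rbpj for Ccl7. Endothelial cells entered as 1 class, so the likeness to Ccl21a cannot tell lymphatic from blood endothelial genes. Gkn3, for example, is a marker of the arterial gate, where Ccl21a stood at only 13.8 and 2.22 CPM. The points share libraries and depth within a library, and these values are descriptions.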

How the data were processed

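The authors deposited raw UMI counts, whole numbers per gene and barcode with no normalization, from 10x Genomics 3′ v3 libraries. Per the file headers they were made with Cell Ranger 7.2.0, and the submitters' processing notes also list Seurat and mm10. The sources used here give no annotation, no intron setting and no use of strand, so overlapping genes and near-identical copies are uncertain: Ccl19 and Ccl21a each name 2 features, of which the identifier in GENCODE vM21 was used.

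The libraries held 17728 and 14349 barcodes with 95735360 and 88220524 UMIs (Cept1 and control). Cells needed 500 genes or more and no more than 10% mitochondrial UMIs. Of kept cells, 1221 and 1267 had no class, 286 and 264 were 1 marker below the gate and 459 and 328 were just inside it. Doublets were not removed beyond the lead rule, and Scrublet was an alternative. Its score threshold of 0.247 from the Cept1 library was used for both libraries and removed 489 and 173 cells. The control library's own threshold was 0.709 and called 0 cells. UMIs were summed per class and library and scaled to 1000000 (CPM). Ratios carry Clopper-Pearson intervals of the split of UMIs, sums Poisson intervals and shares binomial intervals, all at 95%; a count of 0 allows up to 3 counts per library. Thinning to 2000 UMIs left out 1611 and 1445 kept cells. The ratio and its interval were tested on simulated data. Python 3.11.15, scipy 1.17.1, scanpy 1.11.5 and edgeR 4.0.16 (TMM factors only) were used.

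The 10 genes, the lists and the panels were chosen with earlier results of these data known. Beyond the 10, the rule named, per list and class, up to 4 genes with the largest ratio among those with at least 100 UMIs, and the 3 genes most like each of the 10; some of these values are not reported here. Ccl6 and Ccl22 in macrophages, and Ccr7, Ackr2 and Ackr4 in T or NK, B and lymphatic endothelial cells, were chosen after their values were seen. There were 11 alternatives set out at the start and 2 added after seeing the data: cells with markers of at most 1 other panel, and leaving out barcodes found in both libraries.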

Additional observations from a re-analysis of the deposited data

Results flagged for a closer look

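Over 12 gates that do not overlap, and among genes with at least 100 UMIs in a gate, Ccl4, Ccl5 and Ccl21a went both ways. They were at least 2-fold higher in some gates of the Cept1 library and at least 2-fold lower in others. With 1 library per group these differences between gates were not tested. The share of all genes that went both ways is not given here. Of all such genes, 0.361% were lower in arterial endothelial cells, 2.35% in the macrophages with few resident markers, 0.593% in Pi16 and 0.559% in the other fibroblasts. Higher were 9.49% in neutrophils, 0.424% in Pi16 fibroblasts, 3.61% in cytotoxic T or NK cells, 0.537% in lymphatic endothelial cells and 0.99% in resident-marker macrophages. Ccl4 had a log2 ratio of -1.45 in arterial endothelial cells (139 and 171 UMIs, of which the richest cell held 94 and 147), against 1.46 in neutrophils, 2.67 in Pi16 fibroblasts and 1.04 in cytotoxic T or NK cells. Ccl5 stood at -1.57 in the macrophages with few resident markers and at -1.17 in Pi16 fibroblasts, against 1.40 in cytotoxic T or NK cells and 6.42 in lymphatic endothelial cells, the last from 153 and 1 UMIs with 144 in a single cell. In those Pi16 fibroblasts the T or NK panel summed to 6.28 CPM in the Cept1 library and 13.3 CPM in the control library. Ccl21a stood at -1.36 in the fibroblasts without Pi16 or Dpp4 (48 and 87 UMIs), against 2.27 in resident-marker macrophages and 1.35 in Pi16 fibroblasts, where a single cell of the Cept1 library held 223 of 619 UMIs.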

How the results depend on the processing

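The 40 log2 ratios were recomputed under 11 settings, giving 427 values: 286 stayed inside the counting interval of the reported ratio, 135 moved outside it with no turn of a called direction and 6 reversed. Ratios within 2-fold could change sign without being counted as reversed. Ccl5 in macrophages went from -0.73 to 1.99 without the 10 richest cells. Ccl21a in fibroblasts went from 0.96 to -1.27 in cells with markers of at most 1 other panel. Of 40 ratios, TMM scaling moved 1, no cell filter 2, Scrublet 6 and leaving out shared barcodes 0. With every cell weighted equally Ccl5 in endothelial cells stood at -0.17. In cells with markers of at most 1 other panel, Ccl21a in macrophages stood at -0.20. Ccl7 and Ccl12 in endothelial cells stood at -0.36 and -0.94, and Ccl7 and Ccl4 in lymphoid cells at -0.63 and -0.52. Such cells are few (for example 67 and 196 lymphoid cells, with medians of 4990 and 5822.5 UMIs). Ccl8 had 7 and 1 UMIs in the endothelial and 3 and 5 in the lymphoid ones. Ratios of low genes there can thus rest on few UMIs, and no interval is given for them. This setting was chosen after seeing the data, and the cause was not tested. The share of all genes past 2-fold is given for the reported setting only. The counts of the 10 genes under other settings thus have no share beside them, and nothing is read from them. The count of genes past 2-fold in macrophages, 2 as reported, was 1 with the looser gate, 4 without the 10 richest cells and 0 in cells with markers of at most 1 other panel. In endothelial cells, 5 as reported, it was 3 after thinning, 3 without the 10 richest cells and 0 in cells with markers of at most 1 other panel. That 0 leaves out Ccl8, whose 7 and 1 UMIs there were below the minimum of 20 UMIs over both libraries. Ccl8 still stood at 22.4 CPM (Cept1 library) and 6.14 CPM (control library) in those cells, so the 0 does not show that its difference was absent. In lymphoid cells, 8 as reported, it was 4 without the 10 richest cells, 2 in cells with markers of at most 1 other panel and 4 with a minimum of 100 UMIs. The 2 also leaves out Ccl8, at 3 and 5 UMIs and a log2 ratio of 1.09 in those cells. Ccl8 in macrophages ranged from 0.80 to 2.50 and Ccl5 in lymphoid cells from 1.33 to 2.02. No paired analysis was possible because each group is 1 library. Depth limits the low genes, such as Ccl12 and Ccl19 in lymphoid cells with 12 to 19 UMIs in a library.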
